A study of Mus musculus with 6 samples.

Results

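The collagen chains are the 44 genes of the deposited count table whose symbol has the form of a collagen type and chain number, out of 56734 gene symbols in all. They were read in 6 RNA libraries of B16-OVA cells, a mouse melanoma line that makes chicken ovalbumin, grown in DMEM with fetal bovine serum. Of these libraries, 3 came from cells of WT genotype and 3 from Ythdf2-KO cells, in which the gene of an m6A reader protein is knocked out. The WT titles carry the tag gNC, whose meaning the labels do not give, and the labels state neither whether the Ythdf2-KO cells are 1 clone nor whether replicates were separate cultures. The p-values therefore measure the spread between these libraries, which may be technical. Of the 44 genes, 34 had enough counts to be tested and 10 did not.

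A collagen molecule is a helix of 3 polypeptide chains. In some types all chains come from a single gene, and in others the products of different genes assemble together. Fibrillar collagens form the ropes of connective tissue, type IV collagen forms the sheet of basement membranes, type VI collagen forms beaded filaments beside cells, and FACIT collagens sit on the surface of fibrils. The remaining types form hexagonal networks, anchor the epidermis, span the plasma membrane or carry glycosaminoglycan chains. Prolyl and lysyl hydroxylases modify the chains before secretion, and lysyl oxidases crosslink them outside the cell. YTHDF2 binds mRNAs that carry N6-methyladenosine and promotes their degradation. Comparing the genotypes addresses how the mRNAs of these tumor cells differ between cells labelled Ythdf2-KO and WT.

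The libraries held 55660473 to 69497273 counts. Ythdf2 mRNA itself stood at 124, 124 and 125 CPM in the WT libraries and 100.1, 101 and 104 CPM in those of Ythdf2-KO, lower in every Ythdf2-KO library, with 0.816 times the WT level left, log2 fold change -0.29 ± 0.0265 (SE, n = 3 per group; edgeR adjusted p = 4.08e-13). Most of the mRNA was thus still counted, and its level alone does not show a knockout. Levels here are counts-per-million (CPM) scaled by edgeR's TMM factors, given in the order of replicates 1 to 3. Differences were tested over all 17718 genes with edgeR's quasi-likelihood test, and a gene was called at a Benjamini-Hochberg adjusted p under 0.05. Small values need care, since 65.2 to 68.2% of the counts from 1 to 10 were even in each library, so a low count may hold both reads of 1 pair.

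Collagen mRNA took a larger part of the Ythdf2-KO libraries. All 44 genes together made up 1.19, 1.15 and 1.15% of all counts in WT replicates 1 to 3 and 1.73, 1.72 and 1.73% in Ythdf2-KO replicates 1 to 3, a mean 1.48 times as high with no overlap between the genotypes. The beaded filament class took 0.404, 0.385 and 0.389% of all counts in WT replicates 1 to 3 and 0.716, 0.709 and 0.713% in Ythdf2-KO replicates 1 to 3. The fibrillar class took 0.502, 0.493 and 0.491% of all counts in WT replicates 1 to 3 and 0.7396, 0.733 and 0.737% in Ythdf2-KO replicates 1 to 3. Both classes were higher in each Ythdf2-KO library than in any WT library, whereas the basement membrane class took 0.195 ± 0.00375% in WT and 0.188 ± 0.00172% in Ythdf2-KO (SD, n = 3), slightly lower in every Ythdf2-KO library. With the 20 most abundant and the mitochondrial genes dropped, the basement membrane class took 0.2185, 0.2173 and 0.2110% in WT. It then took 0.2104, 0.2094 and 0.2133% in Ythdf2-KO, so the genotypes overlapped. Within the collagen counts alone, the beaded filament class went from 33.7 ± 0.307% to 41.3 ± 0.0268% and the basement membrane class from 16.8 ± 0.1901% to 10.9 ± 0.0764%, while the fibrillar class held 42.5 ± 0.249% and 42.7 ± 0.0229%. These shares are counts, in which long transcripts weigh more, and are given as a description with no test.

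**Figure D1:**
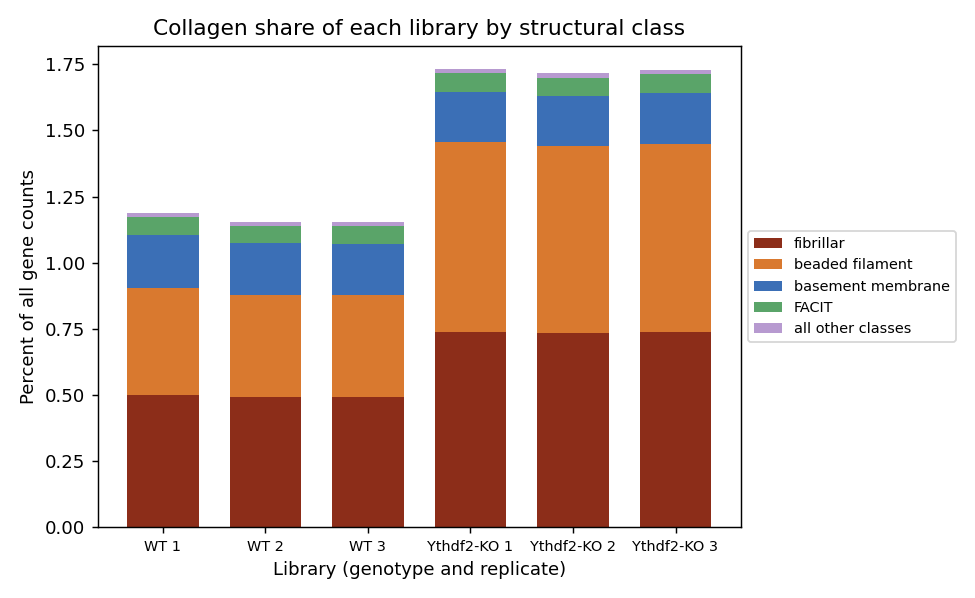
Share of all gene counts taken by the collagen genes in each library, stacked by structural class (percent of counts on the y axis, 1 bar per library). The Ythdf2-KO bars reach 1.72 to 1.73% and the WT bars 1.15 to 1.19%, and the difference lies in the fibrillar and beaded filament parts.

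Among single genes, 19 of the 34 tested were higher in Ythdf2-KO and 8 lower. Of all genes tested, 49.9% were called, 24.1% as higher and 25.8% as lower. The collagen genes were called in 79.4% of cases, and 10 of them were at least 2-fold higher, a step that 6.16% of all genes passed. Of these 10, Col10a1 was at the threshold, with log2 fold changes of 0.832 to 1.10 in other fits of the same counts. Col4a4 and Col15a1 averaged under 1 CPM in both genotypes. Only Col18a1 was at least 2-fold lower, against 3.38% of all genes. The median log2 fold change was 0.37 over the collagen genes and -0.005302 over all genes tested. In 18 collagen genes every Ythdf2-KO library lay above every WT library and in 8 every one lay below, 26 of 34 in all. Over all genes the genotypes did not overlap in 55.9%, with Ythdf2-KO above in 26.9% and below in 28.9%. With upper-quartile scaling the share of all calls that were higher was 59.2%, against 48.3% with TMM, and the collagen genes then numbered 19 higher and 7 lower. The tested collagen mRNAs were longer than most, with a median of 5794 bases against 2707 over all genes tested, and richer in G and C, at a median of 56.3% against 49.7%. With offsets for length and GC content 19 collagen genes rose and 9 fell, beside 4431 and 4407 of all 17718 genes tested.

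**Figure D2:**
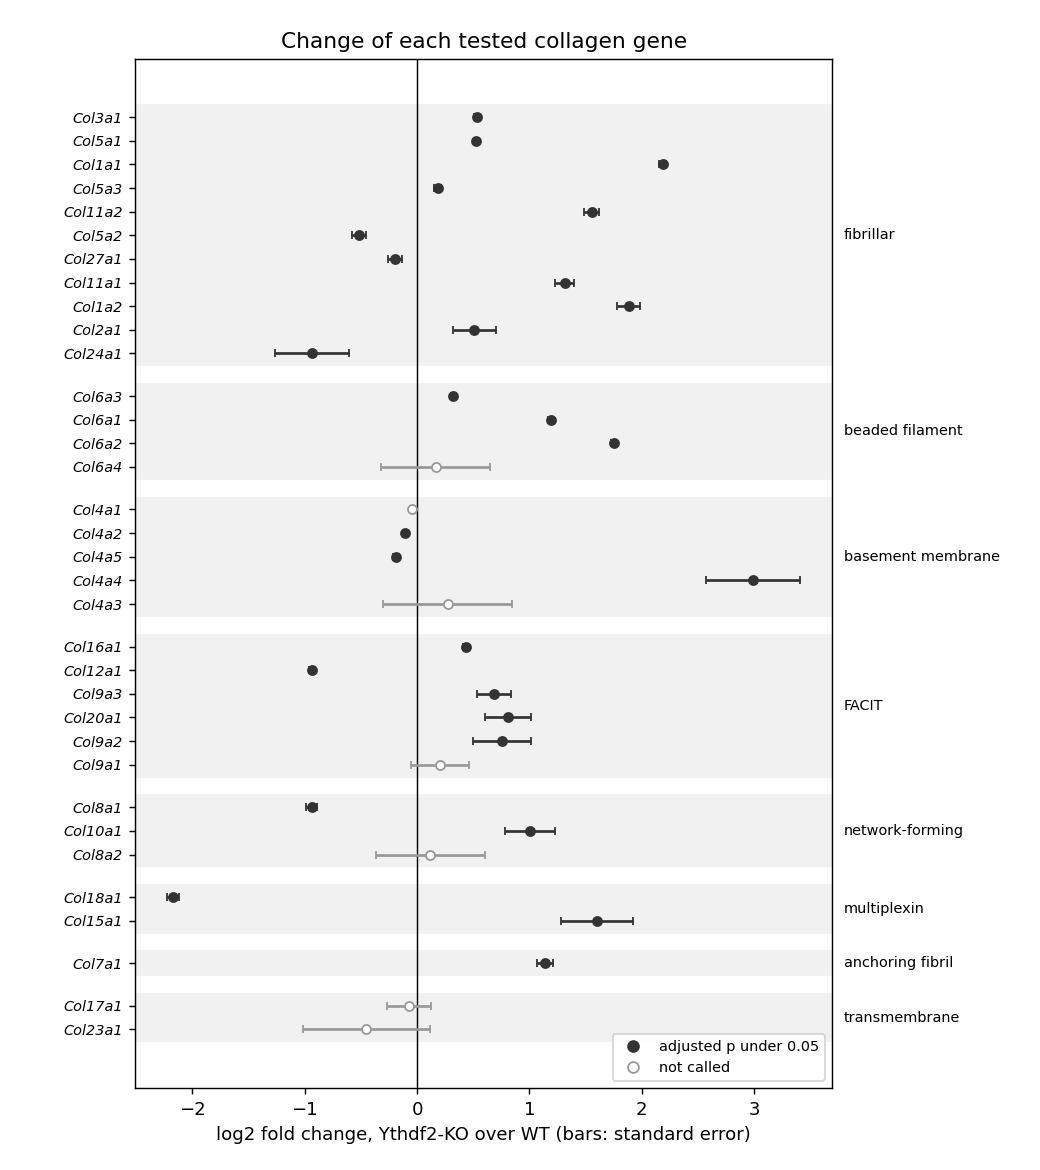
Log2 fold change of each tested collagen gene, Ythdf2-KO over WT (x axis), with its standard error as a bar and genes grouped by structural class. Filled points passed an adjusted p of 0.05, open points did not, and points lie on both sides of 0 in every class with called genes except the beaded filament and anchoring fibril classes.

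Fibrillar collagens were all tested, and 8 of 11 rose while 3 fell, beside 24.1% and 25.8% of all genes tested. Col3a1, which encodes the only chain of type III collagen, was the most abundant collagen per length, at 630.4 ± 7.01 CPM per kilobase in WT and 910.1 ± 10.5 in Ythdf2-KO (SD, n = 3), where it ranked 61 and 32 among 16729 genes. It stood at 3528, 3533 and 3463 CPM in the WT libraries and 5041, 5020.5 and 5130.0 CPM in those of Ythdf2-KO. The genotypes did not overlap, and Col3a1 rose 1.44-fold, log2 fold change 0.53 ± 0.0196 (SE, n = 3 per group; edgeR adjusted p = 9.36e-27). Col5a1, which encodes the main chain of type V collagen, a collagen that starts fibrils and limits their width, rose by nearly the same factor. Its levels were 1340.0, 1333 and 1304 CPM in the WT libraries and 1896, 1905 and 1918 CPM in those of Ythdf2-KO, and its rise was 1.44-fold, log2 fold change 0.52 ± 0.0197 (SE, n = 3 per group; edgeR adjusted p = 1.91e-26).

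Type I collagen, the main fibril of skin and bone, joins chains from Col1a1 and Col1a2. Col1a1 stood at 44.9, 40.4 and 42.2 CPM in the WT libraries and 195, 189 and 196 CPM in those of Ythdf2-KO. Every Ythdf2-KO library was far above every WT library, and Col1a1 had the largest rise among collagens with a mean of at least 1 CPM, 4.56-fold, log2 fold change 2.19 ± 0.03099 (SE, n = 3 per group; edgeR adjusted p = 3.84e-41). Col1a2 stood at 2.23, 2.61 and 2.52 CPM in the WT libraries and 8.93, 9.004 and 9.31 CPM in those of Ythdf2-KO and rose 3.69-fold, log2 fold change 1.88 ± 0.105 (SE, n = 3 per group; edgeR adjusted p = 4.66e-20). Even after its rise Col1a2 was scarce, at 0.459 ± 0.0372 CPM per kilobase in WT and 1.698 ± 0.03802 in Ythdf2-KO, beside 7.17 ± 0.387 CPM per kilobase in WT and 32.6 ± 0.719 in Ythdf2-KO for Col1a1 (SD, n = 3).

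The minor fibrillar chains of type XI collagen, a partner of type V and type II in fibril cores, also rose. Col11a1 stood at 5.04, 5.25 and 6.32 CPM in the WT libraries and 14.4, 13.96 and 13.01 CPM in those of Ythdf2-KO, a rise of 2.48-fold with edgeR adjusted p = 7.70e-18. Col11a2 stood at 8.03, 7.59 and 8.11 CPM in the WT libraries and 23.3, 22.1 and 24.2 CPM in those of Ythdf2-KO, a rise of 2.94-fold with edgeR adjusted p = 1.95e-24. Neither gene's genotypes overlapped. Col5a3, an alternative type V chain, went from 63.5 ± 0.315 to 71.98 ± 3.98 CPM (SD, n = 3), with 63.4, 63.8 and 63.2 CPM in the WT libraries and 76.5, 69.05 and 70.4 CPM in those of Ythdf2-KO, and rose 1.13-fold. Col2a1, the cartilage collagen, was scarce, at 1.800, 1.21 and 1.43 CPM in the WT libraries and 2.05, 2.61 and 1.65 CPM in those of Ythdf2-KO; Ythdf2-KO replicate 3 lay below WT replicate 1. It was called higher (1.42-fold, edgeR adjusted p = 0.0248), but the call was lost when WT replicate 2 or 3, or Ythdf2-KO replicate 1 or 2, was left out (edgeR adjusted p = 0.119, 0.0537, 0.05104 and 0.2397).

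The fibrillar genes that fell were Col5a2, Col27a1 and Col24a1. Col5a2, which encodes the second chain of the common type V molecule, stood at 18.3, 18.7 and 17.1 CPM in the WT libraries and 12.4, 12.3 and 13.1 CPM in those of Ythdf2-KO. It fell 1.43-fold, log2 fold change -0.52 ± 0.0641 (SE, n = 3 per group; edgeR adjusted p = 2.57e-09), with no overlap, opposite to its partner Col5a1. Col5a2 is also the immediate protein-coding neighbour of Col3a1 on chromosome 1 in the RefSeq annotation, so the 2 adjacent genes went in opposite directions. Col27a1, a collagen of developing cartilage, stood at 17.8, 16.2 and 17.99 CPM in the WT libraries and 14.7, 15.7 and 15.00 CPM in those of Ythdf2-KO and fell 1.15-fold; under upper-quartile factors it did not pass (edgeR adjusted p = 0.05903). Col24a1 stayed under 1 CPM, with 44, 47 and 42 counts in WT and 19, 26 and 28 in Ythdf2-KO, and was called lower at a log2 fold change of -0.94. That call did not hold without WT replicate 1 or without Ythdf2-KO replicate 1 (edgeR adjusted p = 0.0552 and 0.0745).

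**Figure D3:**
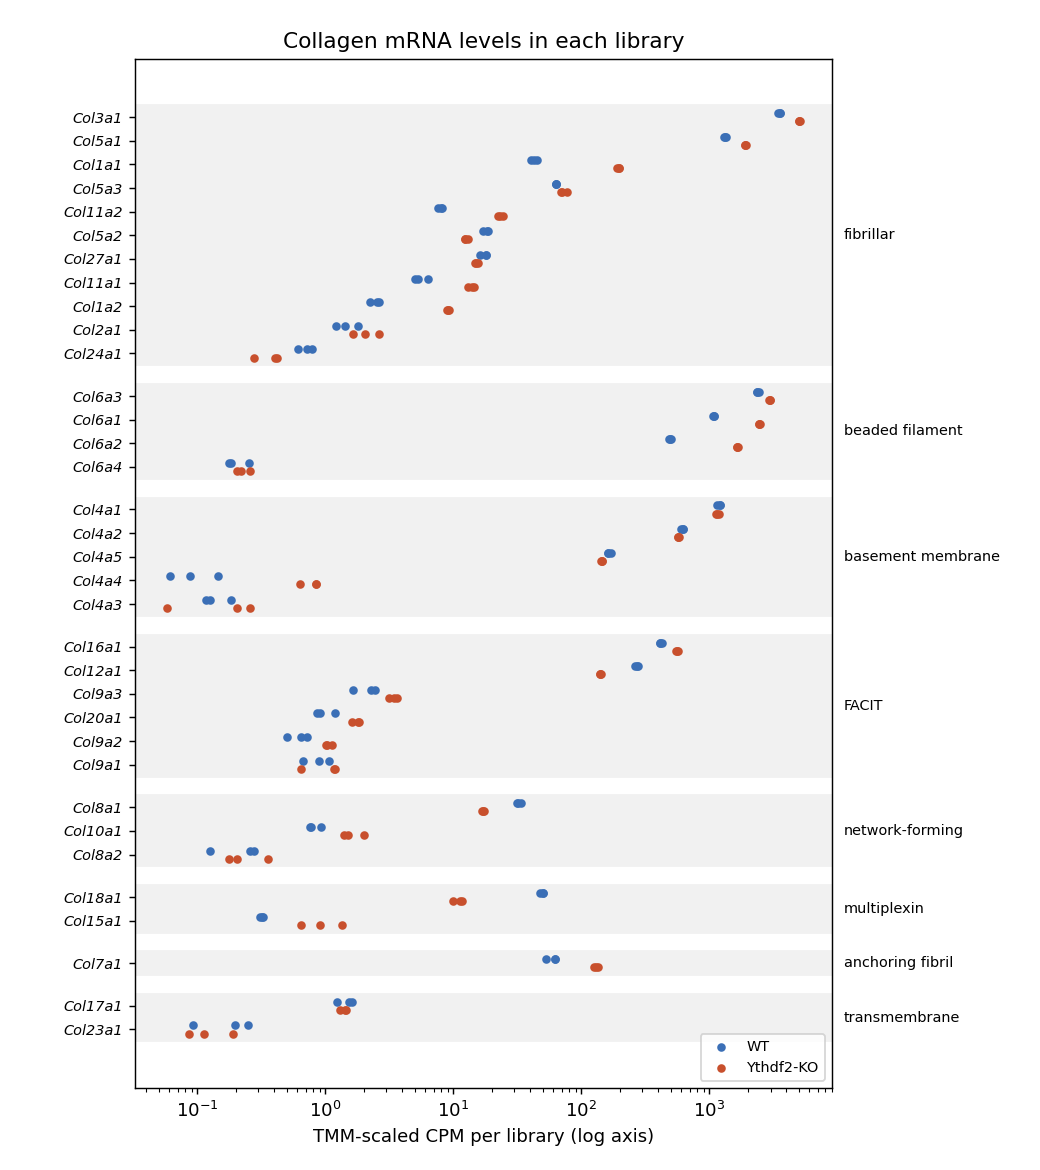
TMM-scaled CPM of each tested collagen gene in every library (log x axis), with 3 WT and 3 Ythdf2-KO points per gene and genes grouped by structural class. Col3a1 is the highest in every library, and the points of a genotype spread widely only below about 1 CPM.

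Type VI collagen was higher in each of its usual chains. The molecule needs the products of Col6a1, Col6a2 and Col6a3, and all 3 mRNAs rose, each by a different factor. Col6a2 stood at 497, 488 and 483 CPM in the WT libraries and 1628, 1631 and 1676 CPM in those of Ythdf2-KO. It rose 3.36-fold, log2 fold change 1.75 ± 0.0208 (SE, n = 3 per group; edgeR adjusted p = 3.82e-46). Col6a1 stood at 1089.7, 1083 and 1071 CPM in the WT libraries and 2454, 2448 and 2485 CPM in those of Ythdf2-KO and rose 2.28-fold, log2 fold change 1.19 ± 0.0198 (SE, n = 3 per group; edgeR adjusted p = 3.01e-40). Col6a3, whose long product carries most of the globular domains of the molecule, stood at 2457, 2350.2 and 2345 CPM in the WT libraries and 2972, 2946 and 2993 CPM in those of Ythdf2-KO and rose 1.25-fold, log2 fold change 0.32 ± 0.0204 (SE, n = 3 per group; edgeR adjusted p = 7.28e-18). No WT library reached the lowest Ythdf2-KO library for any of them. Per length, Col6a1 stood at 264 ± 2.28 CPM per kilobase in WT and 601 ± 4.800 in Ythdf2-KO (SD, n = 3) and passed all collagens other than Col3a1 in both genotypes. Col6a4 had 12 to 16 counts a library and did not pass (edgeR adjusted p = 0.815), and Col6a5 and Col6a6, the other alternatives to Col6a3, had too few counts to be tested.

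Col6a1 and Col6a2 are adjacent on chromosome 10, on the same strand, and their promoter windows are shown because the genes rose together by unequal factors. Each window runs from 250 bases before to 50 bases after a RefSeq start of GRCm38.p6, 5′ to 3′ along the gene's strand. Positions belong to that build, while the counts were made on GRCm39. Capitals mark matches, on either strand, to the TATA box (TATAAA), the CCAAT box that recruits NF-Y, the GC box that SP1 binds (GGGCGG), the AP-1 site of FOS and JUN proteins (TGANTCA) or the M-box that MITF binds in pigment cells (TCATGTG). The window of Col6a1 is chr10:76725995-76726294 (minus strand) and that of Col6a2, at the more downstream of the 2 starts RefSeq lists, is chr10:76623355-76623654 (minus strand).
Col6a1: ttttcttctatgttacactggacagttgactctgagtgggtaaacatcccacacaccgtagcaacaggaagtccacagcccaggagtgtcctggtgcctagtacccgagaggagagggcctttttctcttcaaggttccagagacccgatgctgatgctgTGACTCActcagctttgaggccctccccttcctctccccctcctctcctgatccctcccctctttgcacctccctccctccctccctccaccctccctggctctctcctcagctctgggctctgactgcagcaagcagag
Col6a2: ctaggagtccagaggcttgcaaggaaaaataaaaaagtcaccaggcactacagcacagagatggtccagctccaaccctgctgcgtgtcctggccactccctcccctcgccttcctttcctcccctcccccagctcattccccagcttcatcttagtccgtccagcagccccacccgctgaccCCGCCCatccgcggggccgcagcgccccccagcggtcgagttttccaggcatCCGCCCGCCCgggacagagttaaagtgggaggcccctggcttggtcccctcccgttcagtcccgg
The Col6a1 window held an AP-1 match, TGACTCA, and no other. The Col6a2 window held 3 GC box matches, the last 2 overlapping, and no AP-1 match. Of the 32851 RefSeq windows of this length, 7.81% held an AP-1 match and 35.7% a GC box match. Among the 38 windows of the 35 collagen genes found in the table, 1 held an AP-1 match (Col6a1), 23 a GC box, 13 a CCAAT box, 5 a TATA box and 1 an M-box (Col24a1); 37.4, 13.6 and 3.77% of all windows held the last 3. A match describes the letters and is no evidence of binding. The windows of Col12a1, Col14a1, Col1a1, Col22a1, Col26a1, Col2a1, Col4a3, Col5a2 and Col9a3 were not used here.

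The abundant type IV chains of the basement membrane class differed little. Of the 5 genes of the class that were tested, 1 was called higher and 2 lower, beside 24.1% and 25.8% of all genes tested. Type IV molecules are built from the products of 6 genes that lie in head-to-head pairs, and the common form joins chains of Col4a1 and Col4a2. Col4a1 stood at 1202, 1205 and 1154 CPM in the WT libraries and 1143, 1134 and 1180.3 CPM in those of Ythdf2-KO. The genotypes overlapped, and Col4a1 did not pass the test, log2 fold change -0.042 ± 0.02099 (SE, n = 3 per group; edgeR adjusted p = 0.0928); it was called lower with offsets for length and GC content (edgeR adjusted p = 7.91e-04), without WT replicate 3 (0.0328) and without Ythdf2-KO replicate 3 (0.0238). Col4a2 stood at 626, 620.5 and 602 CPM in the WT libraries and 568, 568 and 581 CPM in those of Ythdf2-KO, with every Ythdf2-KO library lower, and fell 1.08-fold, log2 fold change -0.11 ± 0.0209 (SE, n = 3 per group; edgeR adjusted p = 2.62e-05). Col4a5, whose chain joins Col4a6 in smooth muscle and epithelial membranes, stood at 163, 169 and 162 CPM in the WT libraries and 143, 145 and 145 CPM in those of Ythdf2-KO and fell 1.14-fold, log2 fold change -0.19 ± 0.0246 (SE, n = 3 per group; edgeR adjusted p = 8.92e-09). Without strand information, reads of the stretch where Col4a1 and Col4a2 overlap cannot be assigned to 1 of them.

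The promoter windows of this pair are shown because both genes start from 1 short region. On GRCm38.p6 the starts lie 21 bases apart on opposite strands and the windows share 78 bases. The Col4a1 window is chr8:11312777-11313076 (minus strand) and the Col4a2 window chr8:11312555-11312854 (plus strand), with capitals as above.
Col4a1: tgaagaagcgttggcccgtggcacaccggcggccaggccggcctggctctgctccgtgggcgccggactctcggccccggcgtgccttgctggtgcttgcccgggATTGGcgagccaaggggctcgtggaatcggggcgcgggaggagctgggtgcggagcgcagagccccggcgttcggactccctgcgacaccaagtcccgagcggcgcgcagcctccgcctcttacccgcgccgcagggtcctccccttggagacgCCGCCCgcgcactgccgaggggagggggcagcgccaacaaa
Col4a2: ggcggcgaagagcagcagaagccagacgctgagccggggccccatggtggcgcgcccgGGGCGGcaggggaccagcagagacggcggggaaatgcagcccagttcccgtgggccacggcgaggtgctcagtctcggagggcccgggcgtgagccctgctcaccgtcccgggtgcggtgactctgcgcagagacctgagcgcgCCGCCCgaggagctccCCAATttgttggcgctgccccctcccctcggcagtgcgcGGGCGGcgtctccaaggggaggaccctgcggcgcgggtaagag
Each window held 1 CCAAT box match, and the GC box matched once in the Col4a1 window and 3 times in the Col4a2 window. The Col4a1 GC box match and the last of the Col4a2 matches are the same bases, within the shared stretch. The mRNAs of this pair moved by log2 fold changes of -0.042 and -0.11.

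The other type IV chains were at a few counts. Col4a4, a chain of the kidney filter membrane, had 8, 4 and 6 counts in WT and 58, 39 and 58 in Ythdf2-KO. Every Ythdf2-KO library was above every WT library, and the fitted rise of 7.96-fold (2.99 ± 0.418 log2, SE, n = 3 per group, edgeR adjusted p = 4.51e-08) was the largest of any collagen, though it led only to 0.773 ± 0.122 CPM (SD, n = 3). Its head-to-head neighbour Col4a3, whose product joins it in the same molecule, had 7, 12 and 8 counts in WT and 14, 16 and 4 in Ythdf2-KO. Those genotypes overlapped, and Col4a3 did not pass (edgeR adjusted p = 0.732). Col4a6 had 7, 17 and 11 counts in WT and 9, 5 and 4 in Ythdf2-KO and was not tested.

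FACIT collagens, which bridge fibrils and other matrix proteins, went both ways. Col12a1, a FACIT of tendon and of stroma under load, stood at 275, 269 and 262 CPM in the WT libraries and 139.5, 143 and 139 CPM in those of Ythdf2-KO. Its Ythdf2-KO libraries were all near the same low level, and it fell 1.91-fold, log2 fold change -0.94 ± 0.0238 (SE, n = 3 per group; edgeR adjusted p = 4.20e-33). Col16a1, which is found with fibrils and with fibrillin microfibrils, stood at 424, 413 and 412 CPM in the WT libraries and 559, 553 and 572 CPM in those of Ythdf2-KO and rose 1.35-fold, log2 fold change 0.43 ± 0.0212 (SE, n = 3 per group; edgeR adjusted p = 4.78e-22). The genotypes of neither gene overlapped, and the abundant FACIT genes thus moved in opposite directions. Col9a3 and Col9a2, chains of the cartilage type IX molecule, rose 1.61-fold and 1.69-fold. They stood at 2.43, 1.65 and 2.26 CPM in the WT libraries and 3.62, 3.42 and 3.15 CPM in those of Ythdf2-KO for Col9a3 and at 0.648, 0.504 and 0.715 CPM in the WT libraries and 1.13, 1.02 and 1.01 CPM in those of Ythdf2-KO for Col9a2. The call of Col9a2 (edgeR adjusted p = 0.0119) was lost without WT replicate 2 (edgeR adjusted p = 0.0575). Col9a1, the third type IX chain, overlapped between genotypes at 0.873 ± 0.196 and 1.003 ± 0.311 CPM (SD, n = 3) and did not pass (edgeR adjusted p = 0.5499). Col20a1 stood at 0.864, 0.901 and 1.197 CPM in the WT libraries and 1.81, 1.78 and 1.62 CPM in those of Ythdf2-KO and rose 1.75-fold (edgeR adjusted p = 9.46e-04). In the GENCODE annotation 234 bases of Col9a3 exons overlap the opposite-strand gene Tcfl5, which had 3 counts over all 6 libraries.

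Among the remaining classes, Col18a1 had the largest fall of any collagen. It encodes a basement membrane proteoglycan whose C-terminal fragment is endostatin, a known inhibitor of blood vessel growth. Its level was 49.9, 50.5 and 47.6 CPM in the WT libraries and 9.91, 11.2 and 11.7 CPM in those of Ythdf2-KO. The highest Ythdf2-KO library was well below the lowest WT library, and Col18a1 fell 4.52-fold, log2 fold change -2.18 ± 0.0523 (SE, n = 3 per group; edgeR adjusted p = 5.33e-34). Its relative Col15a1 rose 3.03-fold but only from 0.317 ± 0.00932 to 0.967 ± 0.351 CPM (SD, n = 3), with 18, 21 and 21 counts in WT and 62, 83 and 45 in Ythdf2-KO (edgeR adjusted p = 3.66e-05). The window of Col18a1 at its upstream start, chr10:77166481-77166780 (minus strand) of GRCm38.p6, is shown because this gene, on chromosome 10 like Col6a1 and Col6a2, moved against them.
Col18a1: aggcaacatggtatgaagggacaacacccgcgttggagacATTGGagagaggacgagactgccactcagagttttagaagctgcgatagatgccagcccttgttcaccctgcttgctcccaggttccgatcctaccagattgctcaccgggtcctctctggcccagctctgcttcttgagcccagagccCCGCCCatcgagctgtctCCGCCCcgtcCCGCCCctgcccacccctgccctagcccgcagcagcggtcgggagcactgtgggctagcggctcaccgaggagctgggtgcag
It held 3 GC box matches and 1 CCAAT box match. RefSeq lists a downstream start for Col18a1 as well, whose window held none of these motifs, and gene-level counts do not separate transcripts from different starts.

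Col7a1, the anchoring fibril that ties the epidermal basement membrane to the dermis, stood at 61.8, 52.9 and 62.7 CPM in the WT libraries and 134, 131 and 125 CPM in those of Ythdf2-KO. All Ythdf2-KO libraries were higher, and Col7a1 rose 2.202-fold, log2 fold change 1.14 ± 0.0726 (SE, n = 3 per group; edgeR adjusted p = 5.80e-05). Col8a1, a short-chain collagen of vessel walls and corneal membranes, stood at 32.2, 33.98 and 31.4 CPM in the WT libraries and 16.9, 16.6 and 17.3 CPM in those of Ythdf2-KO and fell 1.92-fold, log2 fold change -0.94 ± 0.0507 (SE, n = 3 per group; edgeR adjusted p = 1.40e-20). Its partner Col8a2 had 7, 17 and 19 counts in WT and 12, 22 and 14 in Ythdf2-KO and did not pass (edgeR adjusted p = 0.8705). Col10a1, the collagen of hypertrophic cartilage, stood at 0.918, 0.764 and 0.773 CPM in the WT libraries and 1.41, 2.01 and 1.501 CPM in those of Ythdf2-KO and rose 2.002-fold (edgeR adjusted p = 1.68e-04). In the GENCODE annotation 18 bases of Col10a1 exons overlap the opposite-strand gene Nt5dc1, which had 8407 counts over all libraries. The membrane-spanning collagens showed no call. Col17a1, a hemidesmosome component, stood at 1.24, 1.53 and 1.61 CPM in the WT libraries and 1.45, 1.295 and 1.43 CPM in those of Ythdf2-KO, and neither it nor Col23a1, with 11, 6 and 17 counts in WT and 13, 7 and 6 in Ythdf2-KO, passed (edgeR adjusted p = 0.804 and 0.545).

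The 10 genes with too few counts for a test were Col4a6, Col6a5, Col6a6, Col13a1, Col14a1, Col19a1, Col22a1, Col25a1, Col26a1 and Col28a1. Col13a1, a membrane-spanning collagen, had no count in any library. A count of 0 allows up to 3 counts, which is 0.0433 to 0.05400 CPM here and covers counting error only. Over all 6 libraries together the other 9 had from 2 counts (Col19a1) to 53 counts (Col4a6). Col26a1 alone among the 10 had genotypes that did not overlap, with 2, 2 and 4 counts in WT and 12, 6 and 6 in Ythdf2-KO.

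Ratios between partner chains were taken within each library per kilobase of transcript, for the 7 pairs with both chains tested. The ratio of Col6a1 to Col6a2 was 2.49, 2.52 and 2.52 in WT replicates 1 to 3 and 1.71, 1.704 and 1.68 in Ythdf2-KO replicates 1 to 3. It was lower in every Ythdf2-KO library, 0.677 times the WT ratio. The ratio of Col6a1 to Col6a3 was 1.09, 1.14 and 1.13 in WT replicates 1 to 3 and 2.04, 2.05 and 2.05 in Ythdf2-KO replicates 1 to 3, 1.83 times as high in Ythdf2-KO. For Col5a1 to Col5a2 it was 57.6, 56.3 and 60.1 in WT replicates 1 to 3 and 121, 122 and 116 in Ythdf2-KO replicates 1 to 3, 2.06 times as high. Both Ythdf2-KO ratios lay clear of WT.

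The ratio of Col4a1 to Col4a2 moved less, at 1.87, 1.89 and 1.87 in WT replicates 1 to 3 and 1.96, 1.95 and 1.98 in Ythdf2-KO replicates 1 to 3, although the genotypes still did not overlap. The ratio of Col1a1 to Col1a2 was 18.2, 13.9 and 15.1 in WT replicates 1 to 3 and 19.7, 18.9 and 19.02 in Ythdf2-KO replicates 1 to 3; it was above every WT library in Ythdf2-KO, and far above the 2 chains of Col1a1 to 1 of Col1a2 in the type I molecule. Col8a1 to Col8a2, which rests on 7 to 22 counts of Col8a2 a library, went from 141 ± 65.9 to 64.6 ± 22.1 (SD, n = 3). Col9a2 to Col9a3 overlapped between genotypes, at 0.308 ± 0.0271 and 0.323 ± 0.0118. By an exact two-sided permutation test on the log2 ratio, 6 of the 7 pairs gave p = 0.1, the smallest that 3 libraries against 3 allow, and Col9a2 to Col9a3 gave p = 0.7; adjusted over the 7 pairs these exact values were 0.117 and 0.7. The design cannot pass 0.05 with this test, and how often the ratios of other gene pairs separate the genotypes was not computed.

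**Figure D4:**
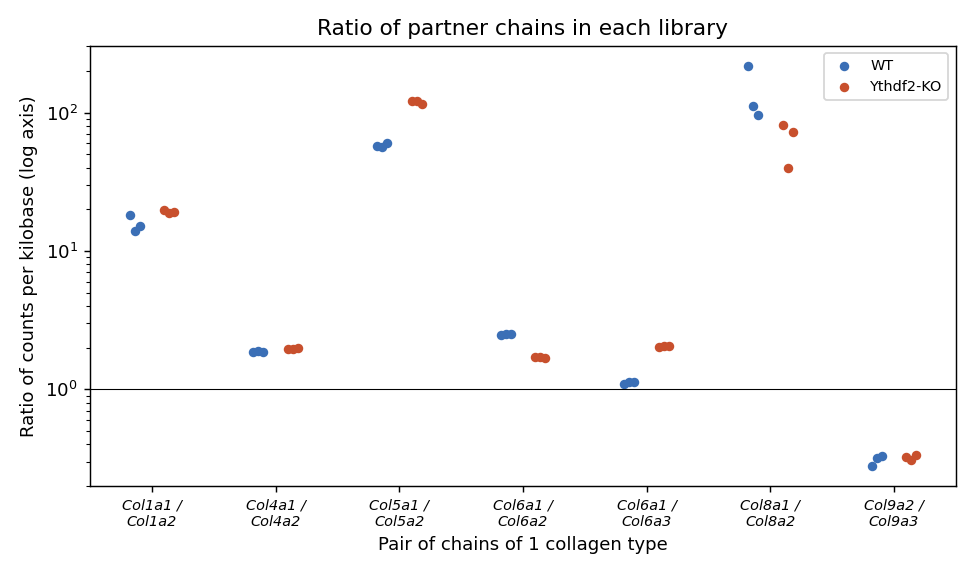
Ratio of counts per kilobase between the chains of 7 pairs (log y axis), with 3 WT and 3 Ythdf2-KO points per pair. The genotypes separate for every pair but Col9a2 and Col9a3, and the line marks equal levels.

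Most enzymes that modify collagen chains were lower. Of 22 tested genes of collagen folding and modification, 2 rose and 13 fell; their median log2 fold change was -0.21, beside -0.005302 over all genes, of which 25.8% fell. P4ha2 and P4ha1, which encode catalytic subunits of the prolyl hydroxylase that stabilizes the collagen helix, had the smallest adjusted p-values. P4ha2 stood at 240.3, 234 and 240.1 CPM in the WT libraries and 125, 125 and 124 CPM in those of Ythdf2-KO and fell 1.91-fold, log2 fold change -0.94 ± 0.0235 (SE, n = 3 per group; edgeR adjusted p = 3.24e-33). P4ha1 stood at 389, 393 and 389 CPM in the WT libraries and 249, 242 and 248 CPM in those of Ythdf2-KO and fell 1.58-fold (edgeR adjusted p = 8.12e-29). The lysyl hydroxylase genes Plod2 and Plod1 fell 1.43-fold and 1.36-fold (edgeR adjusted p = 2.31e-24 and 4.33e-21), with no overlap between genotypes. P3h2, which encodes a prolyl 3-hydroxylase, had the largest fall of the list, log2 fold change -1.58 ± 0.131 (SE, n = 3 per group; edgeR adjusted p = 2.59e-14), and stood at 5.75 ± 0.635 CPM in WT beside 1.92 ± 0.1903 CPM in Ythdf2-KO (SD, n = 3). The genes that rose were Serpinh1, which encodes the collagen chaperone HSP47, from 978 ± 13.4 to 1031 ± 26.6 CPM (SD, n = 3), and Creb3l1, which encodes a transcription factor for collagen genes, from 0.927 ± 0.221 to 1.73 ± 0.132 CPM. P3h2, Serpinh1 and Creb3l1 were named after their values were seen.

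Genes that process, crosslink or bind collagen outside the cell were mixed, with 5 of 14 higher and 4 lower, and their median log2 fold change was 0.0469. Over all genes tested, 24.1% were higher and 25.8% lower. Sparc, which encodes a collagen-binding matricellular protein, stood at 319, 327 and 318 CPM in the WT libraries and 713, 694 and 716 CPM in those of Ythdf2-KO and rose 2.203-fold (edgeR adjusted p = 3.45e-38). Fn1, the fibronectin gene, went from 9170.0 ± 185 to 14050 ± 78.97 CPM (SD, n = 3), a rise of 1.53-fold. Tgm2, which encodes a crosslinking transglutaminase, rose 2.72-fold. Pcolce2, which encodes an enhancer of procollagen cleavage, stood at 44.5, 45.8 and 43.3 CPM in the WT libraries and 12.6, 12.3 and 13.2 CPM in those of Ythdf2-KO and fell 3.51-fold (edgeR adjusted p = 6.07e-32). None of these 4 genes had overlapping genotypes.

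Of 9 tested collagen receptors, 3 rose and 4 fell, beside 24.1% and 25.8% of all genes tested. Their median log2 fold change was -0.0905. Adgrg1, an adhesion receptor that binds type III collagen, fell 1.59-fold, from 92.7 ± 2.62 to 58.4 ± 2.18 CPM (SD, n = 3). The collagen-binding kinase genes Ddr1 and Ddr2 fell 1.44-fold and 1.14-fold, and Mrc2, which encodes a receptor that takes up cleaved collagen, rose 1.25-fold. Collagen-degrading proteases were lower: 8 of 11 fell and 2 rose, beside 25.8% and 24.1% of all genes tested. Their median log2 fold change was -0.43. The gelatinase gene Mmp2 stood at 75.8, 75.5 and 72.3 CPM in the WT libraries and 5.94, 5.295 and 6.24 CPM in those of Ythdf2-KO. Mmp9, the other gelatinase gene, stood at 65.4, 64.4 and 61.7 CPM in the WT libraries and 5.401, 4.68 and 4.81 CPM in those of Ythdf2-KO. The Ythdf2-KO libraries were low for both with no overlap, and Mmp2 and Mmp9 each fell 12.8-fold (edgeR adjusted p = 1.86e-43 and 1.99e-42). Mmp8, which encodes the neutrophil collagenase, fell 47.3-fold from 4.84 ± 0.511 CPM (edgeR adjusted p = 3.82e-24). It had only 8, 8 and 4 counts in Ythdf2-KO, so the size of its fall rests on few reads. Ctsl, which encodes a lysosomal cathepsin, fell 1.35-fold (edgeR adjusted p = 2.55e-23). Fap and Pepd rose, with log2 fold changes of 2.37 and 0.20; Fap is also among the fibroblast markers, and both were named after their values were seen.

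**Figure D5:**
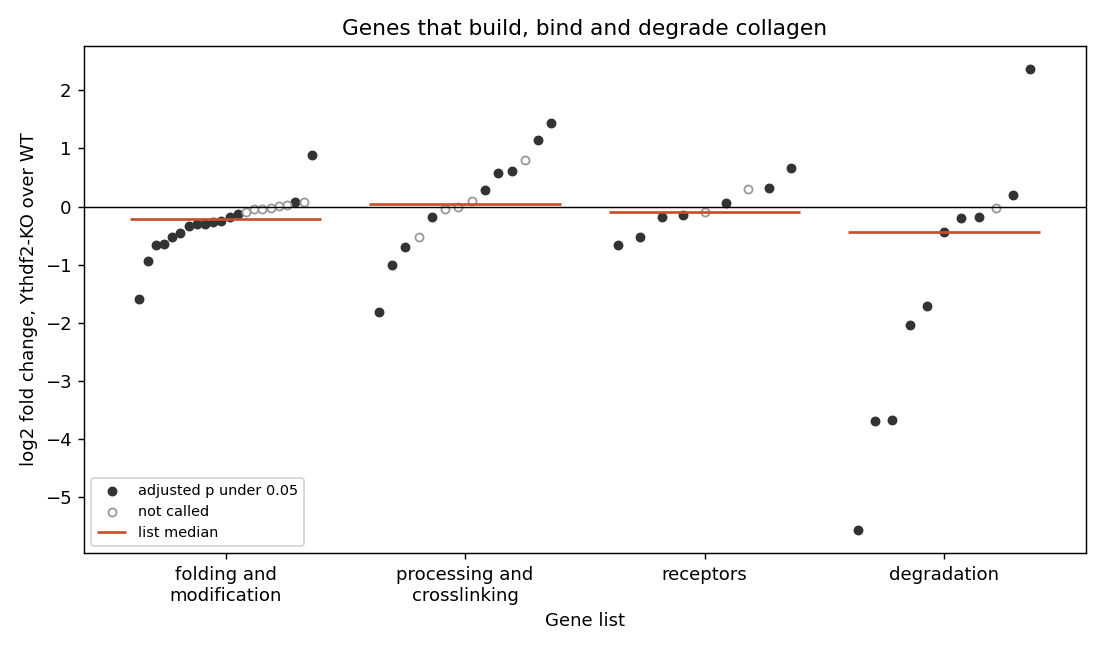
Log2 fold change, Ythdf2-KO over WT (y axis), of the tested genes in 4 lists of collagen-related genes, sorted within each list. Filled points passed an adjusted p of 0.05, horizontal bars mark the list medians, and the folding and degradation lists lie mostly below 0.

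Collagen genes are also typical of fibroblasts, so markers of other cell types were read in the same libraries. Of 11 tested fibroblast and mural cell markers, 4 rose and 6 fell, beside 24.1% and 25.8% of all genes tested. The summed level of the markers was 1280.3 to 1315 CPM in WT and 1089.9 to 1116 CPM in Ythdf2-KO. Dcn, which encodes the fibril-binding proteoglycan decorin, went from 487 ± 8.095 to 41.5 ± 0.735 CPM (SD, n = 3), and Lum, which encodes the related lumican, from 32.6 ± 0.887 to 12.7 ± 0.609 CPM, while the receptor genes Pdgfra and Pdgfrb rose 1.51-fold and 1.49-fold. Dcn alone fell by more than the summed level did, and the other markers together were higher in Ythdf2-KO. Thy1 had 2, 3 and 2 counts in WT and 4, 0 and 25 in Ythdf2-KO. The melanocyte markers were all higher, 10 of 10, with a summed level of 1439 to 1467 CPM in WT and 3109 to 3132 CPM in Ythdf2-KO; Tyrp1, Dct, Pmel and Tyr had log2 fold changes of 2.91, 2.64, 2.86 and 2.93.

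Endothelial and epithelial markers were low, at a summed 2.87 to 3.34 CPM in WT and 2.59 to 2.72 CPM in Ythdf2-KO. Of 9 markers 3 could be tested; Cdh5 passed, as lower (edgeR adjusted p = 0.0134), with 114, 130 and 135 counts in WT and 73, 79 and 120 in Ythdf2-KO, and Pecam1 and Vwf did not (edgeR adjusted p = 0.606 and 0.984). Epcam had 0, 0 and 0 counts in WT and 0, 4 and 0 in Ythdf2-KO. Leukocyte markers summed to 38.7 to 40.1 CPM in WT and 37.4 to 40.2 CPM in Ythdf2-KO, of which Cd68, Lyz2 and Laptm5 made up nearly all; of the 4 tested, Laptm5 and Lyz2 rose and Cd68 and Adgre1 fell, Adgre1 with 22, 10 and 16 counts in WT and 2, 2 and 4 in Ythdf2-KO. Of all genes tested, 24.1% were higher and 25.8% lower. Ptprc had 2, 6 and 5 counts in WT and 2, 0 and 74 in Ythdf2-KO. The part of the fibroblast and melanocyte marker changes in the collagen differences was not tested. In bulk RNA, more cells of a type and more RNA per cell cannot be told apart. Ythdf2-KO replicate 3 held most of the Ptprc and Thy1 counts. Whether other cells in that library bear on the collagen differences was not tested. Without that library, 19 collagen genes were higher and 9 lower, beside 3937 and 4387 of all 18261 genes then tested. The 19 higher and 8 lower genes called with that library were all among them.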

How the data were processed

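RNA was isolated from WT and Ythdf2-KO B16-OVA cells and enriched for poly(A), per the labels' protocols. Per the submitters' processing notes, the authors used fastp 0.23.2, HISAT2 2.2.1, GRCm39 and featureCounts 2.0.6. The deposited values are raw whole counts for each gene symbol. How strand and multiple alignments were treated is not given in the sources used here. Reads of overlapping genes cannot be told apart.

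The counts were fitted with edgeR 4.0.16 (R 4.3.3): filterByExpr, TMM factors of 0.981 to 1.02 and a robust quasi-likelihood fit over 17718 genes, with Benjamini-Hochberg adjustment over all of them. Standard errors are the log2 fold change over the root of the F statistic. Levels per kilobase use the longest protein-coding transcript of GENCODE M21 (GRCm38), joined by symbol. Chain ratios used a prior count of 2 for the log2 test. Alternatives included limma-voom (limma 3.58.1), DESeq2 1.42.0, other scalings and filters, a replicate block and leaving out each library. The pipeline was tested on simulated data. Figures used Python 3.11.15 and matplotlib 3.10.9.

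The genes, lists and tests were chosen with earlier results of these data known. Every collagen gene is accounted for; values by library are given for called genes whose higher genotype averaged 1 CPM or more, and the 4 genes with the smallest adjusted p are named from each list. Any further gene was picked with its values in view.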

Additional observations from a re-analysis of the deposited data

How the results depend on the processing

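Of the 27 called collagen genes, 23 were called in the same direction in every alternative at an adjusted p under 0.05 that tested them; Col2a1, Col9a2, Col24a1 and Col27a1 were not. Leaving out 1 library gave 17 to 19 higher collagen genes and 7 to 9 lower ones. Of all 18220 to 18284 genes then tested, 3937 to 4270 were higher and 4158 to 4387 lower. A filter at a mean of 5 CPM left 20 collagen genes, of which 12 were higher and 7 lower, since fewer were tested. That filter left 10507 genes in all, of which 3410 were higher and 3524 lower. At an adjusted p under 0.01, 17 collagen genes were higher and 7 lower, beside 3558 and 3844 of all 17718 genes tested. Signs turned for genes not called in the fit reported, for Col4a1 with upper-quartile scaling (log2 fold change 0.012) and with 1 library left out for Col8a2 (-0.241 to 0.311), Col17a1 (-0.166 to 0.00418) and Col4a3 (-0.116 to 0.695); the cause was not tested. The log2 ratio of Col9a2 to Col9a3 differed by 0.0481 between genotypes and by -0.0229 to 0.0911 when 1 library was left out. The collagen share differed by 0.5598 percentage points, and by 0.385 when the 20 most abundant and the mitochondrial genes were dropped, which removes Col3a1 and Col6a3, while the ratio of the shares went from 1.48 to 1.600; leaving out 1 library gave 0.554 to 0.572.

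With the replicate block, 19 collagen genes were higher and 8 lower, the same genes as without it. Of all 17718 genes tested, 4132 were then higher and 4409 lower. Libraries of the same replicate number did not deviate together (correlations of 0.011, -0.037 and -0.052), so the numbers were not taken as pairs. Depth limits the genes under about 1 CPM, where a few counts set the values.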

Other observations

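Genes outside the Col names that encode proteins with a collagen-like domain, a list drawn up after the data were seen, numbered 29 in the table, of which 9 were tested, 2 rose and 4 fell. Over all genes tested, 24.1% rose and 25.8% fell. Scara5, which encodes a ferritin receptor, rose 1.79-fold, from 57.8 ± 2.27 to 104 ± 2.92 CPM (SD, n = 3), and C1qtnf6 rose 1.16-fold. Emilin2 and Emilin1, which encode glycoproteins of elastic fibres, fell 1.48-fold and 1.14-fold, and Scara3 and C1qtnf1 fell 1.27-fold and 1.71-fold. The edgeR adjusted p of Scara5 was 2.50e-26 and that of Emilin2 1.19e-19.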
